A study of Mus musculus with 9 samples.

Results

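The genes described here are Cdkn1a and the p53 pathway genes Trp53, Mdm2, Ccng1, Bax, Bbc3, Phlda3, Zmat3, Trp53inp1 and Btg2, measured in mouse liver RNA on Clariom S arrays, which read each gene with a set of short probes. They were looked up by symbol in the platform's annotation, and where a gene had several probe sets the one with the highest mean log2 intensity was to be kept. Of the 10 genes, 8 had a probe set, out of 19505 genes on the array, and each had only 1. Trp53 and Bax had none in the annotation used here and were not analysed here. Cdkn1a was selected on its log2 intensity, because its level in MUP and HNK livers was far below that in WT livers, so its values against WT are given as a description with no test, and the question asked of the other genes is whether they were lower too.

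The arrays hold 3 groups of 3 male C57BL/6 mice. Feeding of a high-fat diet began in all of them at 6 weeks, and non-tumor liver was taken at an age of 40 weeks. HNK livers came from MUP-uPA transgenic mice injected with honokiol, a compound of magnolia bark, at 10 mg/kg and 3 times per week from week 32 to week 40. MUP livers came from MUP-uPA mice given the control treatment, and WT livers from wild-type mice given the control treatment. The MUP-uPA transgene expresses urokinase plasminogen activator from the major urinary protein promoter in hepatocytes, which injures them early in life. The design text speaks of 6 mice, while the sample labels give 3 in each of 3 groups. Nothing further in the labels ties a sample to 1 mouse, and the p-values measure the spread between these samples.

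p53, encoded by Trp53, is a transcription factor that accumulates after DNA damage and other stress and switches on genes that stop the cell cycle, repair DNA, trigger cell death or feed back on p53 itself. Cdkn1a encodes p21, which inhibits cyclin-dependent kinases and holds cells in G1. In the liver p21 restrains hepatocyte division after injury, and Mdm2 keeps p53 low in unstressed hepatocytes.

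Where p53 binds DNA it recognises a pair of half-sites of 10 bases, each of purines, a C, A or T, A or T and a G, and pyrimidines. The start regions of these genes were therefore read from RefSeq (build GRCm38.p6), as windows from 250 bases before to 50 bases after each transcript start. Windows were found for 8 of the 10 genes, with none for Zmat3 and Trp53inp1. The 4 windows printed here show where the Cdkn1a starts, Mdm2 and Ccng1 stand with respect to this motif, with half-sites in capitals, except in the window of the second Cdkn1a start, where the capitals are GC boxes (GGGCGG).
Cdkn1a start 1, chr17:29090729-29091028, plus strand: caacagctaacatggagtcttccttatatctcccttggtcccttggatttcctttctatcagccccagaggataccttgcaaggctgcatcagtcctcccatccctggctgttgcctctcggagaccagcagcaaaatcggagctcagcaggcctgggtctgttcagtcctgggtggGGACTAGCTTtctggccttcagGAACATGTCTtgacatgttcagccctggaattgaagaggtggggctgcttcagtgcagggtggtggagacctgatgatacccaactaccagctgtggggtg
Cdkn1a start 2, chr17:29093519-29093818, plus strand: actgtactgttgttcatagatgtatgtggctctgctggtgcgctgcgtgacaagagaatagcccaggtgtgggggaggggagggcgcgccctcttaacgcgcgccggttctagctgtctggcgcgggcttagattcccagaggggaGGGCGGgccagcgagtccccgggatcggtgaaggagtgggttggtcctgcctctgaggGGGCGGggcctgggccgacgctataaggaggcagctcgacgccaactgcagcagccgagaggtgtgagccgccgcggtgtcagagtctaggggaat
Mdm2, chr10:117710709-117711008, minus strand: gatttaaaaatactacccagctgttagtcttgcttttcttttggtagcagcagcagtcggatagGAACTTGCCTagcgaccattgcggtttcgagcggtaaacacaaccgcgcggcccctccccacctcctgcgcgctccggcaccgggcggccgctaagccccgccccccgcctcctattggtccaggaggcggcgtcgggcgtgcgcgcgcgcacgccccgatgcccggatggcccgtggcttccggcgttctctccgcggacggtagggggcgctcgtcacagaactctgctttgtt
Ccng1, chr11:40755237-40755536, minus strand: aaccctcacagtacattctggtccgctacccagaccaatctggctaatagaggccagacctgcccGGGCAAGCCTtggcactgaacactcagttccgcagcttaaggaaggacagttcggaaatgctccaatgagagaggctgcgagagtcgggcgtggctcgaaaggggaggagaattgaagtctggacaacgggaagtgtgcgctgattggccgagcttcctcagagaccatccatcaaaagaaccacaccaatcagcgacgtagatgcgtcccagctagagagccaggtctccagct

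The window of the first Cdkn1a start held 2 half-sites, at bases -73 to -64 and -51 to -42 from the start, close enough together (a spacer of at most 13 bases) to count as a full site. A full site was found in 24 of 32851 windows of the same length over all genes, or 0.0731%, and a half-site in 8.36%. Both strands were searched. The Mdm2 window held 1 half-site at -186 to -177 and the Ccng1 window 1 at -185 to -176. In all, 5 of the 8 genes with a window had a half-site, among them Trp53 and Bax, which have no probe set here. These 8 genes have 11 windows, and the 8.36% is a share of windows and not of genes. Of 36 further p53 target genes 29 had a window, and 9 of these held a half-site and 0 a full site. Btg2, Phlda3 and the 3 windows of Bbc3 had no exact half-site and held GC boxes, which are in 35.7% of all windows. Sites outside the windows or with a mismatch were not looked for. A match is only a description of these letters, and none of the windows was tested for binding.

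**Figure D1:**
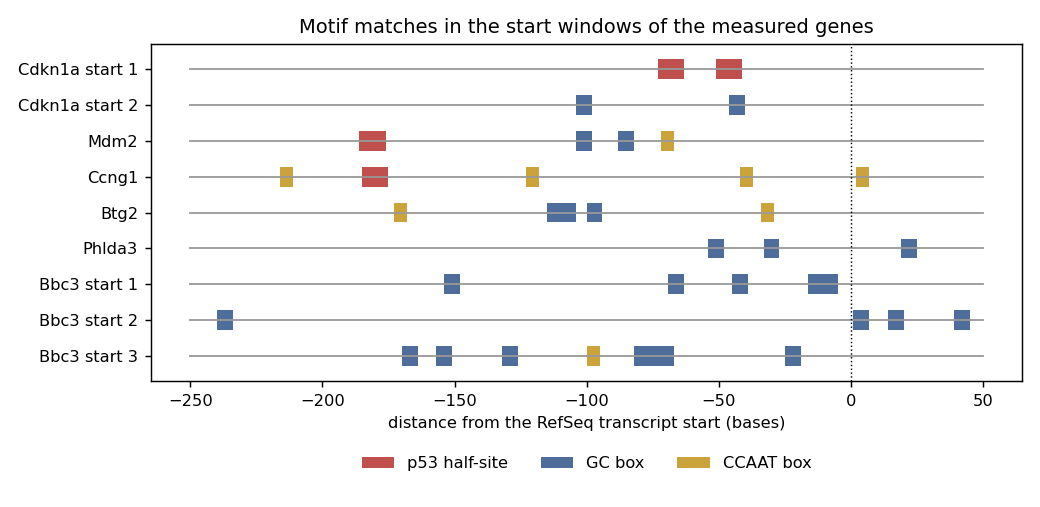
Motif matches in the RefSeq start windows of the 6 measured genes that have one, against the distance from the transcript start in bases. Red boxes are exact p53 half-sites, blue boxes GC boxes and yellow boxes CCAAT boxes (present in 37.4% of all windows). Only the first start of Cdkn1a has 2 half-sites.

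Cdkn1a stood lower in all 6 transgenic livers than in the 3 WT livers. Its log2 intensity was 6.86, 6.20 and 6.72 in HNK livers 1 to 3, and 6.74, 5.73 and 7.47 in MUP livers 1 to 3, against 10.79, 11.52 and 12.13 in WT livers 1 to 3. The brightest transgenic liver, MUP 3, was still below the dimmest WT liver, WT 1, while the values of HNK and MUP livers overlapped. The mean was 6.64 ± 0.87 in MUP livers and 11.48 ± 0.67 in WT livers (SD, n = 3 each), a difference of -4.84 (SE 0.43) on the log2 scale, or 28.6-fold lower. In HNK livers the mean was 6.60 ± 0.35, which is -4.89 (SE 0.43) from WT or 29.6-fold lower. Of 22206 probe sets, Cdkn1a had the second most negative difference in each of these comparisons, which share the WT arrays. All 9 Cdkn1a values lay above the median of the negative control probes, which was 4.91 to 5.10 over the arrays, so the low values were still measured. Whole liver was profiled, so that fewer cells of a type and less RNA per cell cannot be told apart.

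**Figure D2:**
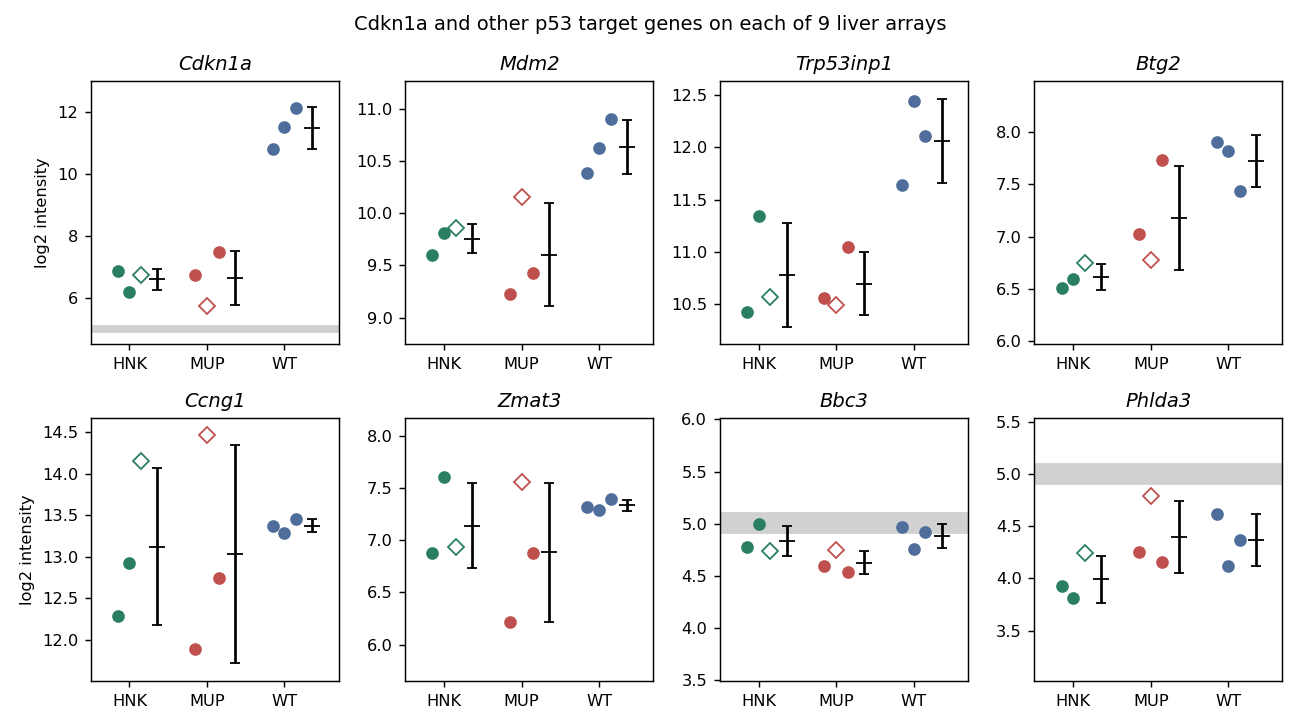
Log2 intensity of Cdkn1a and 7 other p53 target genes on each array, in HNK (green), MUP (red) and WT (blue) livers, with the mean and SD of the 3 arrays beside them; each panel has its own scale. Open diamonds are MUP 2 and HNK 3, which carried skeletal muscle signal, and the grey band is the range of the negative control medians (4.91 to 5.10). For Cdkn1a the HNK and MUP livers lie between 5.73 and 7.47 and the WT livers between 10.79 and 12.13.

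The summed signal of macrophage markers was also lower in every transgenic liver than in every WT liver. Of 10 markers 9 had a probe set and 9 of 9 were above the negative controls on every array, with the log2 of their summed intensity at 12.62 to 14.49 in HNK livers, 13.54 to 14.57 in MUP livers and 15.01 to 16.48 in WT livers. The brightest markers weigh most in this sum, among them Lyz2 at 11.65 to 14.77. The means of all 9 were lower in MUP and in HNK livers than in WT livers. Clec4f, Csf1r, Marco and Timd4 nevertheless overlapped WT in both, and C1qa did in HNK livers. The lowest Timd4 value of the 9 arrays, 5.94, was that of WT 1. In MUP livers 5 of the 9 markers were lower without overlap and in HNK livers 4, against 12.5% and 11.1% of all probe sets. Adgre1, which encodes a surface receptor of Kupffer cells, fell by 1.95 in MUP livers (adjusted p = 0.030 by limma). In HNK livers Adgre1 fell by 1.97 (adjusted p = 0.037) and Vsig4, a complement receptor gene, by 3.03 (adjusted p = 0.042). Between MUP and WT livers Vsig4 differed by -2.36 without overlap (adjusted p = 0.089 by limma). All 9 measured hepatocyte markers were above the negative controls on every array, and the log2 of their summed intensity was 22.12 to 22.15 in HNK livers, 22.08 to 22.20 in MUP livers and 22.04 to 22.15 in WT livers. The brightest marker, Alb, dominates this sum and lay near the top of the array's range, at 19.75 to 19.93 on all arrays. Single markers did differ. Cps1, a urea cycle enzyme gene, read 16.08, 16.89 and 16.73 in HNK livers and 16.77, 16.71 and 17.12 in MUP livers, against 15.54, 15.48 and 15.87 in WT livers. Cps1 rose by 1.24 in MUP livers (adjusted p = 0.010 by limma) and by 0.94 in HNK livers (adjusted p = 0.047). Hnf4a, a hepatocyte transcription factor gene, read 11.58 to 11.90 in HNK livers, against 12.25 to 12.34 in MUP livers and 12.26 to 12.34 in WT livers. The HNK values were below all others, with differences of -0.55 from MUP (adjusted p = 0.998 by limma) and -0.56 from WT (adjusted p = 0.12). The part of macrophage content in the Cdkn1a, Mdm2 and Trp53inp1 differences was not tested.

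Of the other 7 measured genes, Mdm2 and Trp53inp1 were called lower in MUP livers. These 2 fell, 0 of the 7 rose, and the remaining 5 did not pass the test (limma, adjusted p under 0.05), among them Bbc3 and Phlda3 at the background level, while 2.13% of all probe sets were called lower and 1.44% higher. The median log2 difference of the 7 genes was -0.45, against 0.0040 over all probe sets. The mean was lower in MUP livers for 6 of the 7, including Bbc3 at the background level, and the most negative difference after that of Cdkn1a was the -1.37 of Trp53inp1.

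Mdm2 encodes the ubiquitin ligase that marks p53 for degradation and is itself switched on by p53. It read 9.23, 10.16 and 9.42 in MUP livers 1 to 3 against 10.38, 10.63 and 10.90 in WT livers. Every MUP liver was below every WT liver, with MUP 2 the closest to them. Mdm2 fell by 1.03 in MUP livers (SE 0.26, 95% interval -1.59 to -0.48, adjusted p = 0.048 by limma), 2.05-fold lower. This call was lost without any 1 of 8 of the 9 arrays, with adjusted p from 0.052 without HNK 2 to 0.19 without WT 3, and it held only without MUP 2 (-1.31, adjusted p = 0.016 by limma).

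Trp53inp1 encodes a stress-induced nuclear protein that binds p53-modifying kinases and also acts in autophagy. Its log2 intensity was 10.55, 10.49 and 11.04 in MUP livers 1 to 3 and 11.64, 12.44 and 12.11 in WT livers 1 to 3. The groups did not overlap. Trp53inp1 fell by 1.37 in MUP livers (SE 0.29, 95% interval -1.99 to -0.74, adjusted p = 0.024 by limma), 2.58-fold lower. The adjusted p was 0.094 without WT 2, 0.096 without WT 3, 0.079 without MUP 1 and 0.069 without MUP 2, all by limma. For both genes the exact two-sided permutation p was 0.1, the smallest that 3 arrays against 3 can give. With Bbc3, which is at the background level, 3 of the 7 genes were lower in MUP livers without overlap and 0 higher, against 12.5% and 11% of all probe sets.

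Btg2, an antiproliferative gene whose protein binds the mRNA deadenylase complex, was lower on average in MUP livers without passing the test. It read 7.03, 6.77 and 7.74 in MUP livers 1 to 3, against 7.90, 7.82 and 7.44 in WT livers 1 to 3. MUP 3 lay above WT 3, so the groups overlapped. The difference was -0.54 (95% interval -1.13 to 0.04, adjusted p = 0.33 by limma).

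Ccng1 and Zmat3 differed among the MUP livers more than between MUP and WT. Ccng1, whose product cyclin G1 brings a phosphatase to Mdm2, read 11.89, 14.46 and 12.74 in MUP livers 1 to 3, against 13.37, 13.29 and 13.45 in WT livers 1 to 3. The highest and the lowest values of this comparison were both MUP livers. Zmat3, an RNA-binding zinc finger gene, read 6.22, 7.55 and 6.88 in MUP livers 1 to 3, against 7.32, 7.29 and 7.39 in WT livers. MUP 2 was again above all WT livers and the other MUP livers below them. The difference was -0.34 for Ccng1 (95% interval -1.57 to 0.88, adjusted p = 0.81 by limma) and -0.45 for Zmat3 (-1.16 to 0.25, adjusted p = 0.53).

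MUP 2 and HNK 3 are the arrays on which skeletal muscle transcripts appeared. The 21 skeletal muscle markers had a median log2 intensity of 11.50 on HNK 3 and 11.85 on MUP 2, with 21 of 21 above the negative controls, against 4.09 to 4.60 on the other 7 arrays, with 5 to 7 above. The log2 of their summed intensity was 9.54 to 17.84 in HNK livers, 9.35 to 18.31 in MUP livers and 8.93 to 9.22 in WT livers. Ccng1 was highest on these arrays, at 14.15 on HNK 3 and 14.46 on MUP 2, and Cdkn1a was not, at 6.72 and 5.73. Without both arrays the Ccng1 difference was -1.06 for MUP against WT (adjusted p = 0.073 by limma) and -0.77 for HNK against WT (adjusted p = 0.22), and that of Mdm2 was -1.31 for MUP against WT (adjusted p = 0.018). The Trp53inp1 difference was -1.27 for MUP against WT without them, with an adjusted p of 0.065 by limma, and -1.18 for HNK against WT, with an adjusted p of 0.10. Those of Cdkn1a were -4.38 for MUP against WT, -4.95 for HNK against WT and -0.57 for HNK against MUP (adjusted p = 0.91 by limma). The part of the muscle signal in the Ccng1 values was not tested.

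**Figure D3:**
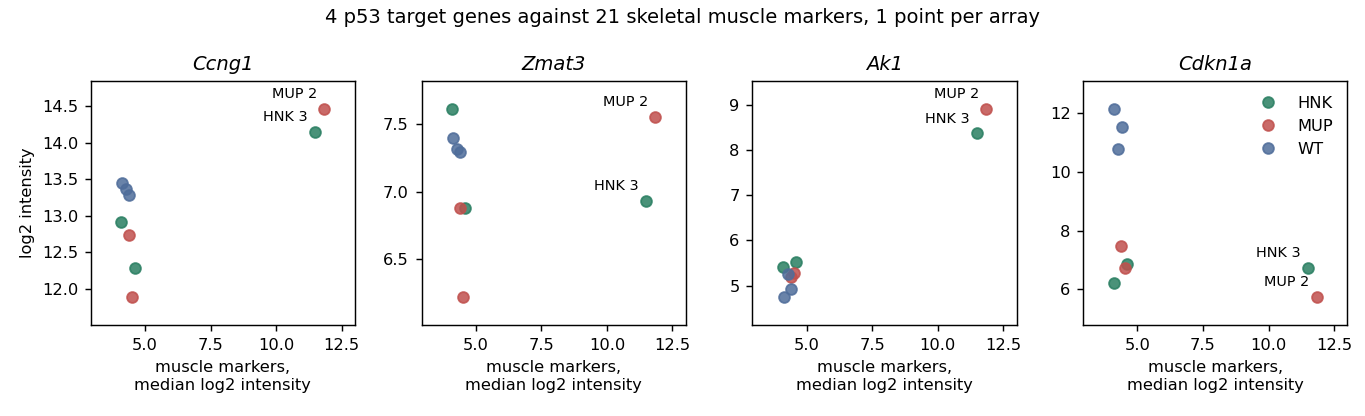
Log2 intensity of Ccng1, Zmat3, Ak1 and Cdkn1a on each array (vertical) against the median log2 intensity of 21 skeletal muscle markers (horizontal), 1 point per array, for HNK, MUP and WT livers. HNK 3 stands at a median of 11.50 and MUP 2 at 11.85, apart from the other 7 arrays at 4.09 to 4.60, and Ccng1 and Ak1 are highest there.

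Bbc3 and Phlda3, which act on cell death and survival, read at the level of the background probes. Bbc3, which encodes the BH3-only protein PUMA, was at or below the negative controls on 8 of 9 arrays, between 4.53 and 4.99. Phlda3, whose protein competes with Akt for membrane lipids, was at or below them on 9 of 9 arrays, between 3.81 and 4.79. Neither allows a fold change, and a difference in these genes was not detectable here.

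No difference between HNK and MUP livers passed the test among these genes. Comparing HNK with MUP livers, 0 of the 8 measured genes were called by limma and 0 reached an unadjusted p under 0.05, where 0% of all probe sets were called lower, 0.0045% higher, and 2.27% and 2.09% reached that unadjusted p lower and higher. For Cdkn1a the difference was -0.05 (95% interval -0.98 to 0.88, adjusted p = 0.998 by limma), an interval that still includes changes of nearly 1 log2 unit in either direction. The intervals were -0.41 to 0.71 for Mdm2, -0.54 to 0.71 for Trp53inp1, -1.14 to 1.32 for Ccng1 and -0.45 to 0.96 for Zmat3. The median difference of the 7 genes besides Cdkn1a was 0.09, against -0.0099 over all probe sets.

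Btg2 was the one measured gene whose HNK and MUP livers did not overlap. It read 6.50, 6.59 and 6.75 in HNK livers 1 to 3 and 7.03, 6.77 and 7.74 in MUP livers 1 to 3. HNK 3 and MUP 2 were separated by only a small gap. The difference was -0.56 (SE 0.27, 95% interval -1.15 to 0.02, adjusted p = 0.998 by limma, exact permutation p = 0.1), and groups without overlap were found for 4.48% of all probe sets with HNK lower and 4.11% with HNK higher. Without MUP 3, the liver with the highest Btg2 value, the difference was -0.28.

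Against WT, Trp53inp1 was called lower in HNK livers. Of the 7 measured genes besides Cdkn1a, 1 fell in HNK livers, 0 rose and 6 did not pass, where 1.33% of all probe sets were called lower and 0.964% higher. At an unadjusted p under 0.05, 3 were lower and 0 higher, against 8.02% and 6.07% of all probe sets. These same 3, Trp53inp1, Btg2 and Mdm2, were the ones whose groups did not overlap, against 11.1% of all probe sets lower and 9.37% higher in HNK without overlap. The means of all 7 were lower, but 2 of them, Bbc3 and Phlda3, lie at the background level and allow no fold change, and the Bbc3 difference of -0.05 became 0.00037 without HNK 3. The median difference was -0.38, the value of Phlda3 itself, against -0.0055 over all probe sets.

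Trp53inp1 read 10.42, 11.34 and 10.57 in HNK livers 1 to 3, against 11.64, 12.44 and 12.11 in WT livers. HNK 2 came closest to the WT livers but stayed below all of them. Trp53inp1 fell by 1.29 (SE 0.29, 95% interval -1.91 to -0.66, adjusted p = 0.040 by limma), 2.44-fold lower. The adjusted p was 0.062, 0.15 and 0.15 without WT 1, WT 2 and WT 3, 0.053 without MUP 1, and 0.12 without HNK 1 or HNK 3.

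Btg2 differed by -1.11 between HNK and WT livers (SE 0.27, 95% interval -1.69 to -0.52, adjusted p = 0.057 by limma), just outside the threshold. It passed without MUP 2 (adjusted p = 0.042) and without MUP 3 (adjusted p = 0.037). In these fits the HNK and WT arrays are the same and the shared estimate of the spread differs. In the other 7 of the 9 fits that left out 1 array Btg2 did not pass, with an adjusted p of up to 0.21 by limma. Mdm2 read 9.60, 9.80 and 9.86 in HNK livers against 10.38, 10.63 and 10.90 in WT livers. All HNK livers lay below all WT livers. The Mdm2 difference was -0.88 (SE 0.26, 95% interval -1.44 to -0.32, adjusted p = 0.11 by limma), and it passed without MUP 2 (adjusted p = 0.049). In the other 8 of these 9 fits Mdm2 did not pass, with an adjusted p of up to 0.35 by limma. Ccng1 at 12.29, 12.92 and 14.15 and Zmat3 at 6.87, 7.61 and 6.93 in HNK livers overlapped WT, with differences of -0.25 (-1.48 to 0.98) and -0.20 (-0.90 to 0.51).

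**Figure D4:**
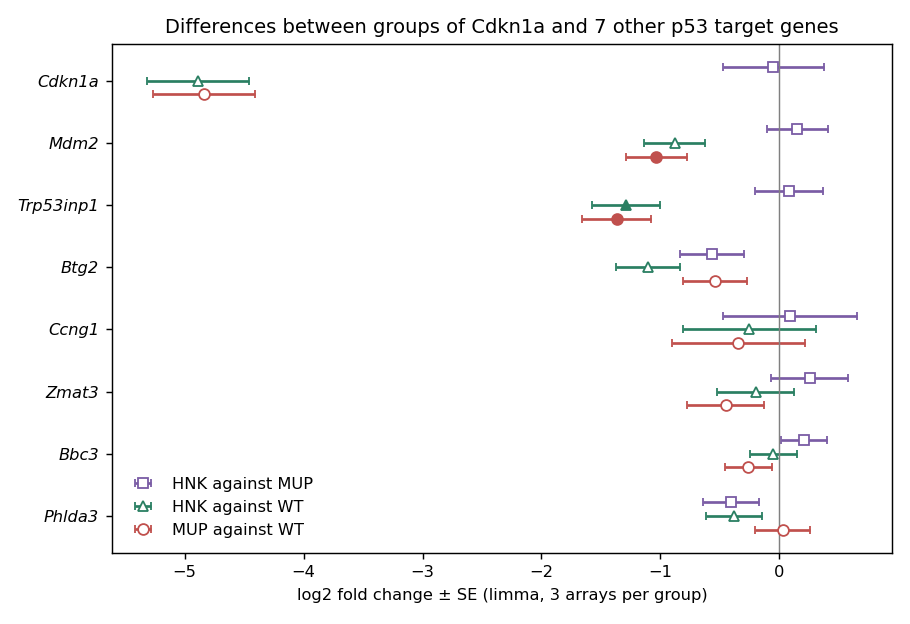
Log2 fold change with its SE from limma (3 arrays per group) for Cdkn1a and 7 other p53 target genes, in HNK against MUP (squares), HNK against WT (triangles) and MUP against WT (circles). Filled symbols passed an adjusted p under 0.05, and Cdkn1a against WT was not tested. Cdkn1a lies at -4.89 in HNK and -4.84 in MUP against WT, while the other genes lie between -1.37 and 0.03 there, the 0.03 being that of Phlda3. Bbc3 and Phlda3 are at the background level, so their points are no measured fold changes.

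A wider list of 36 p53 target genes, of which 33 had a probe set, was counted in the same way. In MUP livers 3 fell, 0 rose and 30 did not pass, or 9.09% called lower where 2.13% of all probe sets were. The median difference was -0.13, against 0.0040 over all probe sets, and 21 of the 33 had a lower mean in MUP livers. At an unadjusted p under 0.05, 9 were lower and 2 higher, against 9.52% and 7.82% of all probe sets. In this list 5 genes were at or below the negative controls on all arrays.

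Abhd4, a lipase gene of N-acyl phospholipid metabolism, read 8.998, 9.20 and 10.11 in MUP livers 1 to 3 against 11.37, 11.39 and 10.82 in WT livers. The groups did not overlap. Abhd4 fell by 1.76 (SE 0.33, adjusted p = 0.013 by limma). Ei24, which encodes a membrane protein of the endoplasmic reticulum, read 13.22, 13.16 and 13.17 in MUP livers against 13.69, 14.10 and 14.09 in WT livers. The MUP values were almost the same as each other. Ei24 fell by 0.78 (SE 0.17, adjusted p = 0.030 by limma). The third call, Tnfrsf10b (-1.21, adjusted p = 0.041), which encodes a TRAIL death receptor, was at or below the negative controls on all 9 arrays, so it is no measured decrease. By limma, Abhd4 lost its call when WT 1, WT 2 or MUP 1 was left out (adjusted p 0.054 to 0.070), and Ei24 when WT 2, WT 3 or any 1 MUP array was (0.065 to 0.14).

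Other genes of this list leaned lower without passing. Ddit4, an inhibitor of mTORC1, differed by -1.30 (adjusted p = 0.088 by limma) between MUP and WT livers, with 4 of 9 arrays at or below the negative controls, and Eda2r, a receptor gene of the TNF receptor family, by -1.16 (adjusted p = 0.10). The kinase gene Plk2 differed by -0.80 (adjusted p = 0.12), the death receptor gene Fas by -0.61 (adjusted p = 0.27) and the apoptosome gene Apaf1 by -0.72 (adjusted p = 0.15). On the higher side were Steap3, an endosomal ferrireductase gene, at 0.92 (adjusted p = 0.072), and Rrm2b, a ribonucleotide reductase subunit gene, at 0.69 (adjusted p = 0.22). The difference of Ak1, an adenylate kinase gene abundant in muscle, was 1.49 (adjusted p = 0.46), and its values of 8.38 on HNK 3 and 8.91 on MUP 2, against 4.74 to 5.53 on the other 7 arrays, lie on the arrays with muscle signal.

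In HNK against WT, 2 of the 33 fell, Ei24 (-0.79, adjusted p = 0.036 by limma) and Abhd4 (-1.45, adjusted p = 0.043), 0 rose and 31 did not pass, where 1.33% of all probe sets were called lower and 0.964% higher. The median difference was -0.11, against -0.0055 over all probe sets. At an unadjusted p under 0.05, 8 were lower and 2 higher, against 8.02% and 6.07% of all probe sets. The 2 higher genes were Steap3 (1.06, adjusted p = 0.053 by limma) and Dram1 (0.86, adjusted p = 0.088). Abhd4 read 9.87, 9.19 and 10.17 in HNK livers and Ei24 13.27, 13.21 and 13.03, below all WT livers in each case. Ei24 kept this call without MUP 1 or MUP 2 alone among the 9 fits that left out 1 array, and Abhd4 without any 1 of the 3 MUP arrays. In the other such fits the adjusted p was 0.052 to 0.17 for Ei24 and 0.053 to 0.17 for Abhd4. In HNK against MUP, 0 of 33 were called by limma. There 1 gene, Dram1, an autophagy gene, was higher at an unadjusted p under 0.05, with 6.29, 5.94 and 6.47 in HNK livers against 5.57, 5.75 and 5.74 in MUP livers, and 0 were lower. The Dram1 difference was 0.55 (adjusted p = 0.998 by limma).

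**Figure D5:**
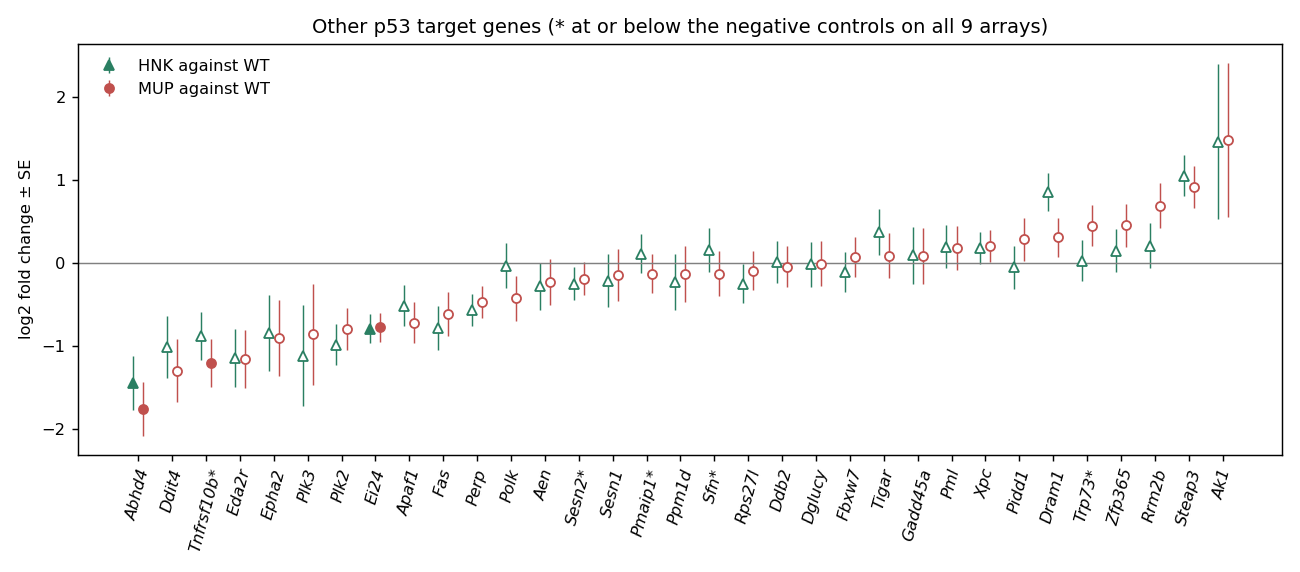
Log2 fold change with its SE from limma for 33 further p53 target genes, in HNK against WT (triangles) and MUP against WT (circles), ordered by the MUP against WT value; filled symbols passed an adjusted p under 0.05. Abhd4 and Ei24 are filled in both, and Tnfrsf10b, at or below the negative controls on all 9 arrays, in MUP against WT.

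Genes that act on p53 itself were counted next. Of 16 regulators, 0 were called in any of the 3 comparisons by limma. At an unadjusted p under 0.05, 2 were higher and 1 lower in MUP against WT, 1 was higher in HNK against WT and 0 differed in HNK against MUP. Over all probe sets 7.82% were higher and 9.52% lower at that p in MUP against WT, and 6.07% higher in HNK against WT. Hipk2, a kinase that phosphorylates p53, differed by 0.59 between MUP and WT livers (adjusted p = 0.094), the acetyltransferase gene Ep300 by 0.59 (adjusted p = 0.16), the deubiquitinase gene Usp7 by 0.45 (adjusted p = 0.29) and Daxx, which binds Mdm2, by -0.82 (adjusted p = 0.14, with 4 of 9 arrays at or below the negative controls). The Mdm2 relative Mdm4 read 8.25 to 8.79 in HNK livers, 7.67 to 8.95 in MUP livers and 8.01 to 8.53 in WT livers, with full overlap.

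The other inhibitors of cyclin-dependent kinases were read in the same way. Of 6 such genes, 0 were called in any comparison by limma, and at an unadjusted p under 0.05 there was 1 higher in each comparison with WT, Cdkn2c, and 0 in HNK against MUP, where 7.82% of all probe sets were higher in MUP against WT and 6.07% in HNK against WT. Cdkn1b, which encodes p27, read 7.05, 8.03 and 8.13 in HNK livers, 7.45, 7.89 and 7.64 in MUP livers and 7.82, 7.87 and 7.51 in WT livers. These ranges overlap throughout. Cdkn2c, which encodes p18, had differences of 0.62 for MUP against WT (adjusted p = 0.27) and 0.95 for HNK against WT (adjusted p = 0.11). Cdkn1c, Cdkn2a and Cdkn2b were at or below the negative controls on all 9 arrays. The difference between Cdkn1a and these genes was not itself tested.

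When p21 inhibits its kinases, the DREAM complex represses cell cycle genes, many of them of G2 and mitosis. Of 14 measured genes of G2 and mitosis or repressed by DREAM, 2 fell in MUP livers, 0 rose and 12 did not pass. Of all probe sets 2.13% were called lower and 1.44% higher, and 4 of the 14 genes were at or below the negative controls on all arrays. The mean was lower in MUP than in WT livers for 12 of the 14, these 4 counted in. Their median difference was -0.59, against 0.0040 over all probe sets. At an unadjusted p under 0.05 by limma, 6 were lower and 0 higher, against 9.52% and 7.82% of all probe sets. Without overlap 8 were lower and 0 higher, against 12.5% and 11% of all probe sets. Cenpa, the centromeric histone gene, read 7.07, 6.96 and 7.16 in MUP livers against 8.78, 7.99 and 8.11 in WT livers. MUP livers were below all WT livers. Cenpa fell by 1.23 (SE 0.26, adjusted p = 0.024 by limma). Ccnb2, a mitotic cyclin gene, read 5.47, 6.46 and 5.78 in MUP livers against 6.85, 7.40 and 7.33 in WT livers. These groups did not overlap either. Ccnb2 fell by 1.29 (SE 0.30, adjusted p = 0.040 by limma). Cenpa lost the call when WT 1, WT 3 or any 1 MUP array was left out (adjusted p 0.063 to 0.10 by limma), and Ccnb2 without HNK 1, MUP 1, MUP 3 or any 1 WT array (0.054 to 0.15).

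In HNK against MUP these G2, mitosis and DREAM-repressed genes had a higher mean in 12 of 14, the 4 at background counted in. Mcm5 and E2f1 were also at or below the negative controls on 8 of 9 arrays, and Birc5 on 6 of 9. The median difference was 0.43, against -0.0099 over all probe sets. This comparison shares the MUP arrays with that of MUP against WT, where the mean was lower in MUP livers for 12 of the 14. In HNK against MUP 0 were called by limma, with 1 higher at an unadjusted p under 0.05, Ccnb2, against 2.09% of all probe sets. Ccnb2 read 6.52, 6.24 and 7.02 in HNK livers, a difference of 0.69 from MUP (adjusted p = 0.998 by limma). HNK 2 lay below MUP 2, so the groups overlapped. Mki67, the proliferation antigen gene, read 8.67, 5.89 and 8.63 in HNK livers against 6.94, 7.22 and 6.30 in MUP livers. HNK 2 was the lowest of these and the other HNK livers the highest. Against WT, 0 of the 14 were called in HNK livers by limma, while 2, Cenpa and Cdc20, had an unadjusted p under 0.05 and a lower mean, against 8.02% of all probe sets. Cdc20 was at or below the negative controls on all 9 arrays, so its lower mean is no measured decrease. The mean was lower in HNK than in WT livers for 10 of the 14, with a median difference of -0.33, against -0.0055 over all probe sets.

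Of 10 measured cyclins, kinases and replication partners of p21, 0 were called in any comparison by limma. At an unadjusted p under 0.05, 2 were lower in MUP against WT, against 9.52% of all probe sets. These were Cdk1, at or below the negative controls on all 9 arrays and so not a measured decrease, and the cyclin gene Ccna2 (-0.98, adjusted p = 0.17 by limma), at or below them on 5 of 9. In HNK against WT, 2 were lower, against 8.02% of all probe sets, the kinase genes Cdk2 (-0.77, adjusted p = 0.27) and Cdk4 (-0.60, adjusted p = 0.19). In HNK against MUP, 1 was higher, against 2.09% of all probe sets, and this was Cdk1 at its background level.

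The BCL2 family and the relatives of these genes held no call. Of 11 BCL2 family genes, 0 were called in any comparison by limma and 1 was lower in each at an unadjusted p under 0.05, against 9.52% of all probe sets in MUP against WT, 8.02% in HNK against WT and 2.27% in HNK against MUP. Bcl2l11, which encodes the BH3-only protein BIM, differed by -0.82 between MUP and WT livers (adjusted p = 0.089 by limma) with 8 of 9 arrays at or below the negative controls. Of 8 paralogs, 0 were called in any comparison by limma. At an unadjusted p under 0.05, 3 were lower in MUP against WT, 2 lower and 1 higher in HNK against WT, and 1 higher in HNK against MUP. The shares of all probe sets were 9.52% lower in MUP against WT, 8.02% lower and 6.07% higher in HNK against WT, and 2.09% higher in HNK against MUP. Btg1, the relative of Btg2, read 7.43, 7.47 and 8.38 in HNK livers and 7.84, 7.64 and 7.19 in MUP livers, against 9.17, 8.46 and 8.48 in WT livers. Every transgenic liver was below every WT liver. Its difference was -1.15 for MUP against WT (adjusted p = 0.068) and -0.94 for HNK against WT (adjusted p = 0.16). Ccng2, the relative of Ccng1, read 9.64, 9.68 and 9.67 in HNK livers and 9.31, 9.77 and 10.01 in WT livers, against 8.68, 8.77 and 9.43 in MUP livers. HNK and MUP livers did not overlap, with a difference of 0.71 (unadjusted p = 0.015, adjusted p = 0.998 by limma). Of all probe sets, 4.11% were higher in HNK than in MUP without overlap. Against WT the Ccng2 difference was -0.03 for HNK (adjusted p = 0.98 by limma) and -0.74 for MUP (adjusted p = 0.14).

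The genes most like Cdkn1a over the 9 arrays were Tspan14, Nipsnap3b, Rtf2, Ywhaq and St3gal3, each with a Pearson r of 0.98, out of 4881 probe sets with a mean log2 of at least 6 and a range of at least 1. Tspan14, a tetraspanin gene, averaged 8.65 in HNK livers and 8.70 in MUP livers, against 9.96 in WT livers. St3gal3, a sialyltransferase gene, averaged 13.16 in HNK, 13.34 in MUP and 14.35 in WT livers. Most opposite were Lyrm1 (r = -0.98), Emp2 (-0.98) and Cyp2d9 (-0.97), a cytochrome P450 gene, which averaged 18.75 in HNK livers and 18.63 in MUP livers, against 17.08 in WT livers. Over 9 arrays such an r follows the gap between WT and the other livers, and it is given as a description.

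By the same measure Trp53inp1 (r = 0.89), Mdm2 (0.79) and Btg2 (0.77) were the closest to Cdkn1a of the 7 genes, while Zmat3 (0.25) and Ccng1 (0.08) were not close. Of the 33 further p53 targets, Ei24 (0.96) and Abhd4 (0.89) had the highest r and Steap3 (-0.82) the lowest. Within the 6 transgenic livers the order changed. There Btg2 had an r of 0.64 with Cdkn1a, with MUP 3 the highest of the 6 livers for both genes, and Trp53inp1 one of 0.10. The other 5 had a negative r, Mdm2 at -0.75, Zmat3 at -0.64, Bbc3 at -0.62, Ccng1 at -0.55 and Phlda3 at -0.45. None of these r was tested. Bbc3 and Phlda3 were at or below the negative controls on all 6 of these arrays, so their r is that of background values. Ei24 had an r of 0.03 there and Abhd4 one of 0.66, where the 33 further targets ranged from -0.90 to 0.79. Mdm2 was highest and Cdkn1a lowest on MUP 2, 1 of the arrays with muscle signal.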

How the data were processed

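Liver RNA of 9 samples was measured on Clariom S arrays. The deposited intensity values were normalized by the authors. The submitters' processing notes name RMA and Affymetrix Expression Console, without versions, and the methods name the Filgen MicroArray Data Analysis Tool, version 3.2. No source used here gives a genome build. The deposited table has 28846 rows on a linear scale. Its 6640 control rows were left out, and log2 was taken of the other 22206 probe sets, of which 19572 had 1 gene symbol in the platform's annotation. The median of the 5222 negative control rows on an array served as the background level. The number of arrays limits the precision, as arrays yield no counts.

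All 3 comparisons (MUP with WT, HNK with MUP, HNK with WT) were contrasts of 1 linear model of 9 arrays with a coefficient per group, from lmFit and eBayes (trend = TRUE) of limma 3.58.1 under R 4.3.3, with 5.83 prior and 6 residual degrees of freedom. Two-sided p-values were corrected by Benjamini-Hochberg for 22206 probe sets, with calls at an adjusted p under 0.05. Both comparisons with WT share the WT arrays, and both that involve MUP share the MUP arrays. The fit was tested on simulated data.

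The genes, the 11 lists and the alternatives were chosen with earlier results of these data known. Named are these genes, every gene of a list that was called, otherwise up to 4 of the smallest unadjusted p, and the 5 most like and 3 most opposite to Cdkn1a. Mdm4, Cdkn1b, Mki67, Ak1, Alb, Csf1r, Timd4, C1qa, Birc5, Mcm5 and E2f1, and Vsig4 in MUP against WT, were named after their values were seen. So were the uncalled other p53 targets in MUP against WT (Ddit4, Eda2r, Plk2, Fas, Apaf1, Steap3 and Rrm2b), and Steap3 and Dram1 in HNK against WT. Start windows of 300 bases came from RefSeq (GRCm38.p6), with no other coordinates printed. As alternatives, a comparison was fitted on its own arrays, with the replicate number as a block, with array weights (statmod 1.5.0), without the dimmest 40 percent of probe sets, after cyclic loess or median centring, without the variance trend, by the methods' t-test, and with each array in turn, or both arrays with muscle signal, left out.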

Additional observations from a re-analysis of the deposited data

How the results depend on the processing

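In MUP against WT, 2 of the 7 genes besides Cdkn1a were lower. This count became 1 with the arrays of both groups alone, with median centring, without the variance trend and without both arrays with muscle signal, 0 with the methods' t-test after Benjamini-Hochberg, and 0 to 1 when 1 array was left out. Of the other p53 targets 3 were lower, and this became 5 with array weights, 0 with the methods' t-test and 0 to 4 when 1 array was left out. The 0 that were higher became 1 with array weights, without the dimmest 40 percent and without both muscle arrays, and 0 to 1 when 1 array was left out. In HNK against WT, the 1 lower gene, Trp53inp1, was replaced by Btg2 with both groups alone (adjusted p = 0.056 for Trp53inp1 and 0.037 for Btg2 by limma). The count became 3 with array weights, 2 without the dimmest 40 percent, 0 with median centring, without the trend, with the methods' t-test and without both muscle arrays, and 0 to 3 when 1 array was left out. Without both muscle arrays the 2 lower other targets, Ei24 and Abhd4, became Abhd4 and Tnfrsf10b, which is at the background level. Their count became 1 with both groups alone and with cyclic loess, 0 without the trend and with the methods' t-test, and 0 to 2 when 1 array was left out. The 0 higher became 1 with both groups alone, without the dimmest 40 percent and with median centring, 2 with array weights, and 0 to 1 when 1 array was left out. In HNK against MUP these counts were 0 under all these alternatives. Same-numbered samples did not deviate together (median r 0.03 over 9 pairs, against 0.01 over 18 other pairs, and 2 of 9 over 0.1), so the numbers were not taken to pair them. With the replicate number as a block, the other p53 targets had 1 higher in MUP against WT, and 1 lower and 1 higher in HNK against WT, and the counts of the 7 genes stayed at 2 and 1. The cause of these changes was not tested.

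The Cdkn1a difference ranged from -5.25 to -4.38 for MUP against WT and from -5.23 to -4.56 for HNK against WT when 1 array was left out. Differences near 0 changed sign. With array weights Phlda3 was -0.0021 in MUP against WT and Trp53inp1 -0.0806 in HNK against MUP, and with cyclic loess Ei24 was 0.0116 in HNK against MUP. Without both muscle arrays Phlda3 was -0.17 in MUP against WT, Bbc3 0.00037 in HNK against WT, and Ei24 0.045 and Abhd4 -0.0218 in HNK against MUP. When 1 array was left out, the sign changed within -1.06 to 0.23 for Ccng1 and -0.17 to 0.15 for Phlda3 in MUP against WT. It changed within -0.77 to 0.16 for Ccng1 and -0.13 to 0.00037 for Bbc3 in HNK against WT. In HNK against MUP it changed within -0.51 to 0.36 for Cdkn1a, -0.0363 to 0.43 for Mdm2, -0.20 to 0.26 for Trp53inp1, -0.48 to 0.81 for Ccng1, -0.0777 to 0.59 for Zmat3 and -0.0667 to 0.0562 for Ei24. Each gene here has 1 probe set, and the dim genes are at the background in both groups, so the alternatives of another probe set and of bounds gave no value.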
